A study of Mus musculus with 10 samples.

Results

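The Sox factors of the epiblast and of neural cells are 8 named genes (Sox1, Sox2, Sox3, Sox4, Sox11, Sox12, Sox13 and Sox15) of the 31053 genes counted in mouse embryonic stem (ES) cells. They were taken as a list of symbols, chosen with earlier results of these data known, and all 8 passed the filter on low counts. All are described in every comparison, whatever their values. All groups were E14 cells, a mouse ES line, carrying a stably integrated Esrrb construct that doxycycline (DOX) switches on. Esrrb encodes a nuclear receptor that helps hold ES cells in the naive state. In the 96 h DOX group (3 libraries) and the 96 h no DOX group (3 libraries), cells plated sparsely in 2iL were moved the next day to plain N2B27 medium with or without DOX and collected after 96 h. The 2iL group (4 libraries, without DOX) stayed in N2B27 with LIF, a cytokine, and with inhibitors of GSK3 (CHIR99021, 3 µM) and of MEK (PD0325901, 1 µM). The design asks how Sox factors changed when ES cells left the naive state, and how that change looked when DOX was present. All DOX libraries come from cells with the construct and after 2iL removal, so effects of DOX itself and of Esrrb cannot be told apart.

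Sox proteins bind DNA through an HMG box, which inserts into the minor groove and bends the helix, and they usually act with a partner factor on a neighbouring site. Sox1, Sox2 and Sox3 form the SoxB1 subfamily. Sox2 acts with the POU factor Oct4 (Pou5f1) in pluripotent cells, and all SoxB1 factors keep neural progenitors undifferentiated. Sox4, Sox11 and Sox12 form the SoxC subfamily, known for activating neuronal genes as progenitors differentiate. Sox13 is a SoxD factor that binds TCF factors, and Sox15 is a SoxG factor known from mouse ES cells and muscle precursors.

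The subfamilies can be read from the coding sequence of the HMG box. The lines below give the 60 coding bases near the start of the box for the SoxB1 and SoxC members. They are shown because Sox2 and Sox3, alike here, were called in opposite directions between no DOX and 2iL. They were read from GENCODE vM21 transcripts, 5′ to 3′, and capitals mark bases that differ from Sox2.
Sox1: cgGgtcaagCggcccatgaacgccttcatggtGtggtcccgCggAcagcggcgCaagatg
Sox2: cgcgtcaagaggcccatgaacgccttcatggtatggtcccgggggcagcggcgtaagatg
Sox3: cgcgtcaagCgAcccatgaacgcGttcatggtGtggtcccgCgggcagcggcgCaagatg
Sox4: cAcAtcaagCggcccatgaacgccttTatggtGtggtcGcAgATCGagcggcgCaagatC
Sox11: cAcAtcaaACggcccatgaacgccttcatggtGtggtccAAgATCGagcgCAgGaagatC
Sox12: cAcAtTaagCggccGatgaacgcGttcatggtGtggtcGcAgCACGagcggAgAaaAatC
Sox1 and Sox3 each differed from Sox2 at 6 of these 60 bases, Sox4 at 13, Sox11 at 15 and Sox12 at 17. Over 237 bases of the box, the 6 pairs within a subfamily were identical at 83.5% to 89.9% of bases, against 57.4% to 76.4% for the 22 pairs between subfamilies. The reads counted here come from transcript 3′ ends, where the genes do not resemble each other: across the last 500 bases of the transcripts, the longest exact run shared by any of the 28 pairs was 12 bases.

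The 4 promoter windows below belong to Sox2, which fell after 2iL removal without DOX, and to the SoxC genes, which all rose there. Each holds the 250 bases before the RefSeq transcript start on GRCm38.p6, 5′ to 3′ on the strand of the gene. Capitals mark a CCAAT box (CCAAT, or ATTGG on the other strand) and, in Sox12, also the octamer ATGCAAAT, a POU factor motif.
Sox2 (chr3:34649745-34649994, plus strand): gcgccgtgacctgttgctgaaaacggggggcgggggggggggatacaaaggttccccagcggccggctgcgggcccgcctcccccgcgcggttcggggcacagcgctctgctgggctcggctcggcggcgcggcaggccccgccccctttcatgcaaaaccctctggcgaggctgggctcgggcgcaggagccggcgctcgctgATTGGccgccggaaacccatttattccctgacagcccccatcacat
Sox4 (chr13:28953700-28953949, minus strand): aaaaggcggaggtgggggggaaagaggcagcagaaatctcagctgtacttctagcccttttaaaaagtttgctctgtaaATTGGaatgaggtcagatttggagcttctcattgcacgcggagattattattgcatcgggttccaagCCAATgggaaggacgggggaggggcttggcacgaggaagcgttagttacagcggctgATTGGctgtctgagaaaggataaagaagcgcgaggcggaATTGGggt
Sox11 (chr12:27342719-27342968, minus strand): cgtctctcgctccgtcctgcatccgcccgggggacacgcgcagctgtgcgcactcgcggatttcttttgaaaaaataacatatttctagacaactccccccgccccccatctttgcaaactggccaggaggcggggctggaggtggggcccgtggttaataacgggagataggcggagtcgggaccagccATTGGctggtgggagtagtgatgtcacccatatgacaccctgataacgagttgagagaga
Sox12 (chr2:152398047-152398296, minus strand): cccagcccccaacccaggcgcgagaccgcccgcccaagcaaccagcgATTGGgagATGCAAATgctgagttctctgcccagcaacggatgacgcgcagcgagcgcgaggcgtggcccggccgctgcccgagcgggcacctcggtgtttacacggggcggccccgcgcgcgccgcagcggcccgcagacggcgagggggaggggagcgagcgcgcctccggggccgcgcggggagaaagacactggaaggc
Windows were found for 7 of the 8 genes, all but Sox3, so the motif counts do not cover Sox3. The CCAAT box lay in 5 of them (Sox1, Sox2, Sox4, Sox11 and Sox12), against 33.8% of all 32851 mouse windows of this length. The octamer lay in 1 of them, Sox12, where it began 195 bases before the start; 1.6% of all windows hold it. Searched on both strands, the Esrrb element TCAAGGTCA, its core AAGGTCA (which that element contains), the Sox element CATTGT and the TATA box TATAAA were in 0 of the 7 windows. Their shares among all windows were 0.387%, 4.08%, 10.7% and 12.4%.

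The libraries held 1253620 to 4715450 reads in genes, with 12659 to 14723 genes detected. The library 96 h DOX exp1_2 stood apart. It was the shallowest (the others held at least 2769071 reads) and carried a later date in its deposited name than the other 9. Its share of mitochondrially encoded genes was 3.10%, against 0.559% to 1.27% elsewhere, that of Gm42418 was 14.8%, against 3.39% to 6.61%, and that of ribosomal protein genes was 7.48%, against 14.0% to 17.7%. Of 4 macrophage markers, Ptprc (24 reads) and Csf1r (27 reads) were detected in it, against 0 reads of Ptprc and 0 to 2 of Csf1r in the other libraries; Cd68 had 7 reads in it and 28 to 141 elsewhere, and Adgre1 had 0 in it and 0 to 1 elsewhere. The 8 fibroblast markers summed to 2102 CPM in it (reads scaled to the library total). They summed to 10.8 and 23.9 in the other DOX libraries, 17.0 to 19.9 without DOX and 1.82 to 9.39 in 2iL. Most of the 2102 CPM came from Col1a2 (1288 CPM) and Col1a1 (595 CPM). All 8 had reads in it, but Lum had 1 read and Pdgfrb 5, and 5 to 7 had reads without DOX and 2 to 6 in 2iL. Differences of the Sox genes that involve DOX are given with and without it. At 96 h the 8 naive ES markers summed to 429 to 530 CPM with DOX and 165 to 193 CPM without DOX. In 2iL they summed to 2101 to 2389 CPM. Reads were found for 7 or 8 of them in the DOX libraries and for all 8 in the others. Zfp42, Klf4, Tfcp2l1 and Tbx3 were higher in every DOX library than in any no DOX library. Nanog, Klf2, Dppa3 and Esrrb overlapped between DOX and no DOX. Reads at Esrrb itself came to 13.0 (exp1_1), 15.95 (exp1_2) and 29.2 CPM (exp2_1) with DOX, 24.1, 13.4 and 31.3 CPM without DOX, and 218 to 344 CPM in 2iL. The labels do not say whether the construct carries the Esrrb 3′ end, so these reads do not check its induction.

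Levels below are CPM after TMM scaling (a correction for differences in library composition), and differences are log2 ratios with standard error (SE). Tests are edgeR's quasi-likelihood test, with p adjusted over all 11215 genes tested and a call at an adjusted p under 0.05. Library names give the experiment and its library number, in the order exp1_1, exp1_2 and exp2_1 for DOX, exp1_1, exp1_2 and exp2_2 for no DOX, and exp1_1, exp1_2, exp2_1 and exp2_2 for 2iL. Nothing in the labels says that the libraries are separate cultures, so p-values measure the spread between these libraries only. The 3 comparisons share their libraries in pairs and are not independent of each other. In bulk RNA, fewer cells of a type and less RNA per cell cannot be told apart.

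At 96 h, Sox3 was the Sox factor called by edgeR between DOX and no DOX: it was 7.19-fold lower with DOX than without. In both groups it was still called higher than in 2iL. Of the other 7 genes none was called by edgeR, against 3.10% of all genes called in this comparison (2.16% higher, 0.945% lower). At an unadjusted p under 0.05, 1 was higher (Sox2) and 2 were lower (Sox3 and Sox11). Ranked by p, Sox2 was number 442, Sox3 number 17 and Sox11 number 373 of the 11215 genes tested. DESeq2 called the same 3, among 563 genes it called in all. For Sox2, Sox3, Sox4 and Sox11 the libraries of both groups did not overlap, with 1 of them higher and 3 lower; this also held for 18.7% of all genes (9.98% higher, 8.74% lower). The median over the 8 genes was -0.19, beside -0.02 over all genes tested.

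Without DOX, removal of 2iL was followed by higher Sox3, Sox4, Sox11 and Sox12 and by lower Sox2. That is 4 genes called higher, 1 lower and 3 not passing, against 20.4% of all genes called in this comparison (11.5% higher, 8.90% lower). All 8 had groups that did not overlap, 5 higher and 3 lower, against 30.9% of all genes (16.1% higher, 14.8% lower). The median was 1.43, beside 0.00391 over all genes. For Sox1 and Sox15 the lack of overlap depends in part on the filter on low counts. Its level was reached by Sox1 in 3 of 3 no DOX and 0 of 4 2iL libraries, and by Sox15 in 0 of 3 and 4 of 4. Both thus passed it through groups where they are high.

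With DOX against 2iL, Sox1, Sox3, Sox4 and Sox11 were called higher and 4 did not pass, against 16.7% of all genes called (9.84% higher, 6.83% lower). None was called lower by edgeR, while at an unadjusted p under 0.05, and by DESeq2, 1 was (Sox15). Ranked by p, Sox15 was number 2326 of the 11215 genes tested. Groups did not overlap for 4 genes, Sox1, Sox4 and Sox11 (higher) and Sox15 (lower), against 27.6% of all genes (14.3% higher, 13.3% lower). The median was 1.09, beside 0.0189 over all genes. Here too the separation of Sox1 and Sox15 depends in part on the filter. Its level was reached by Sox1 in 3 of 3 DOX and 0 of 4 2iL libraries, and by Sox15 in 1 of 3 and 4 of 4.

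**Figure D1:**
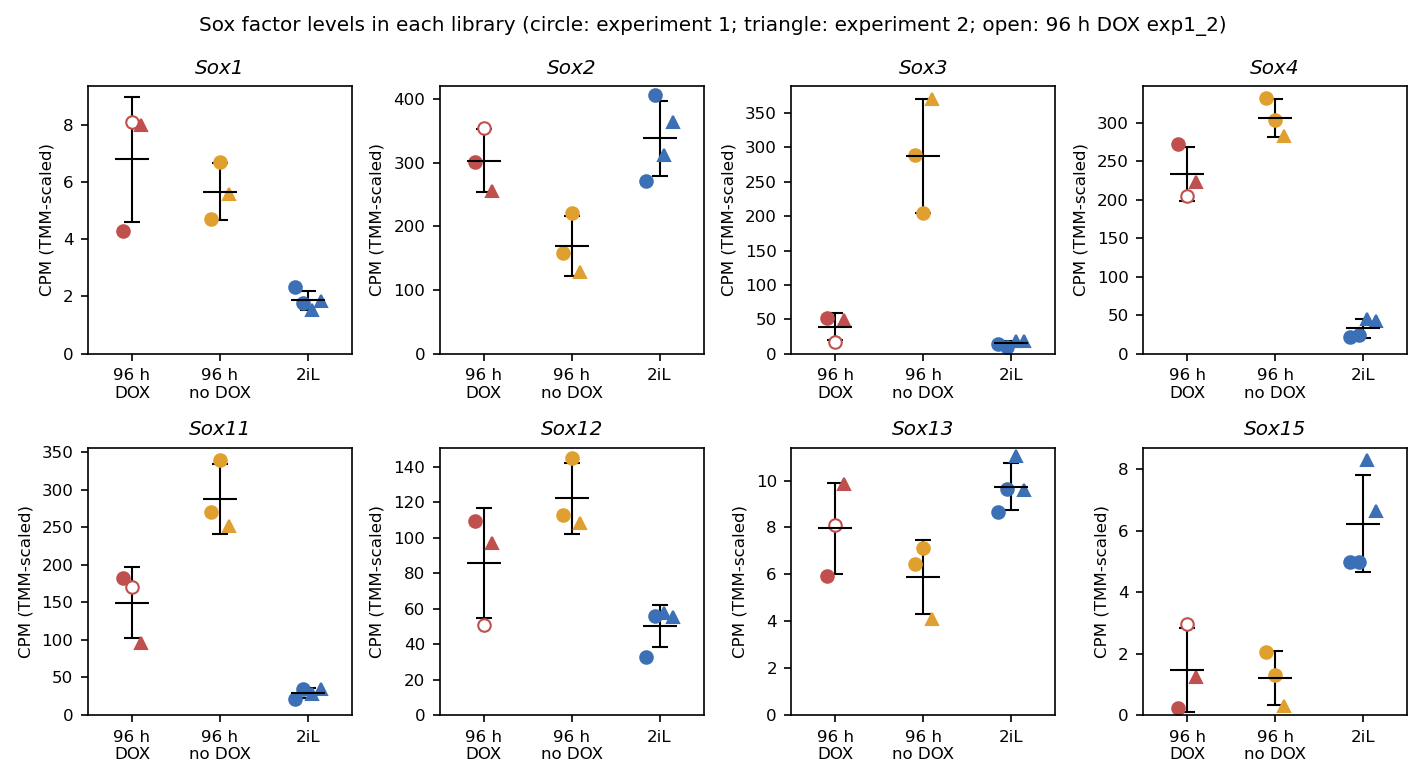
Levels of the 8 Sox genes in each library, in TMM-scaled CPM from 0 on a linear axis, by group (96 h DOX, 96 h no DOX, 2iL); circles are experiment 1, triangles experiment 2, the open circle is 96 h DOX exp1_2, and bars give mean ± SD (n = 3, 3 and 4). Sox3 lies at 16.2 to 51.6 CPM with DOX and at 204 CPM or more without DOX, while Sox2 is lowest without DOX.

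**Figure D2:**
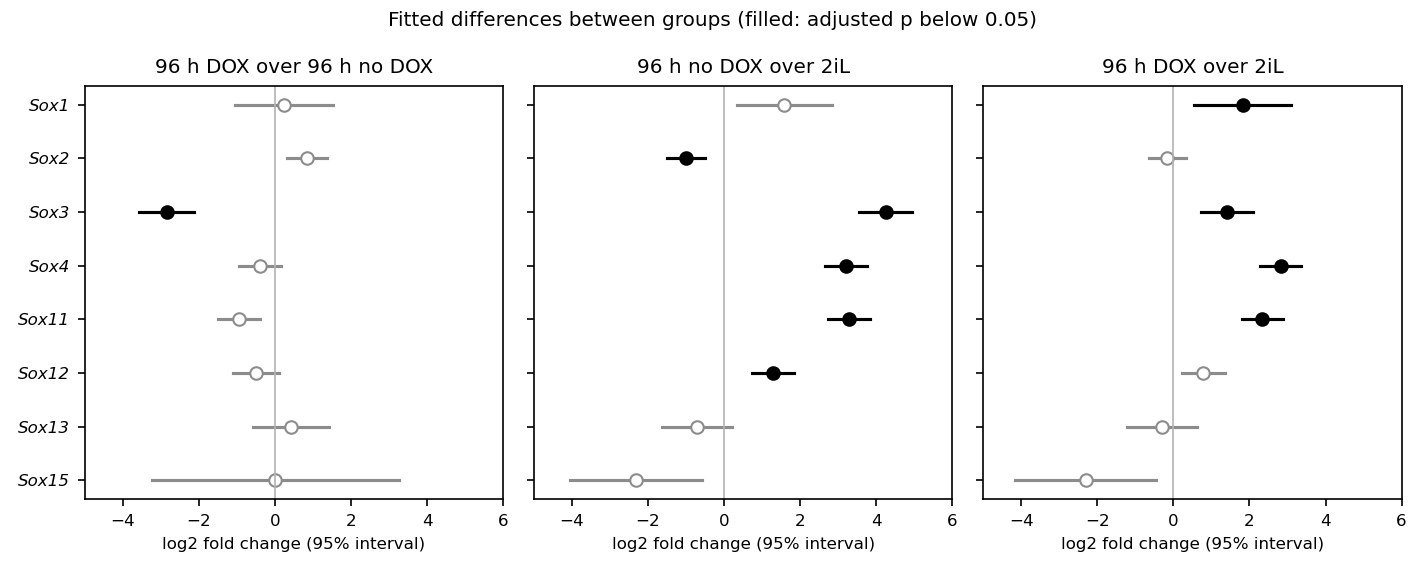
Fitted log2 fold changes of the 8 Sox genes with 95% intervals in the 3 comparisons; filled points have an adjusted p under 0.05. Sox3 is the filled point with DOX over no DOX, at -2.85, and 5 genes are filled for no DOX over 2iL.

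Among the SoxB1 genes, Sox3 (ENSMUSG00000045179; mm10 chromosome X, 60891366 to 60893430, minus strand, 1 exon) stood at 51.6, 16.2 and 48.6 CPM in the DOX libraries. The no DOX libraries held 289.5, 204 and 370.2 CPM, and the 2iL libraries 14.7, 9.94, 18.4 and 17.7 CPM. Every no DOX library lay above every other library, and DOX exp1_2, with 22 reads, lay within the 2iL range. Between DOX and no DOX the difference was -2.85 ± 0.35 (SE; 95% interval -3.57 to -2.12; adjusted p = 4.77e-05), with group means of 38.8 ± 19.6 and 288 ± 83.0 CPM (SD, n = 3 each). It was -2.78 within experiment 1 (adjusted p = 0.00441) and -2.93 within experiment 2, where each 96 h group has 1 library and no test. Without DOX exp1_2 it was -2.52 (adjusted p = 1.52e-05), and the DOX mean was then 50.1 CPM. By p, Sox3 was number 17 of all genes tested in this comparison.

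Between no DOX and 2iL, Sox3 was 19.0-fold higher, a log2 difference of 4.24 ± 0.34 (adjusted p = 2.03e-08), with 4.31 and 4.36 within the experiments and a 2iL mean of 15.2 ± 3.87 CPM (SD, n = 4). With DOX it was still 2.64-fold higher than in 2iL (1.40 ± 0.33, adjusted p = 0.00512), although the groups overlapped through exp1_2. Within experiment 1 alone that difference was 1.53 and did not pass (adjusted p = 0.0519). Without DOX exp1_2 it was 1.72 (adjusted p = 8.02e-05). The order of levels was thus no DOX, DOX and 2iL, each step past the test across all libraries.

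Sox2 (ENSMUSG00000074637; chromosome 3, 34650405 to 34652461, plus strand, 1 exon), the pluripotency factor, stood at 301, 354 and 255 CPM with DOX. Without DOX it stood at 158, 220.4 and 128 CPM, and in 2iL at 272, 406, 312 and 364 CPM. The no DOX libraries were all below the others, while DOX and 2iL overlapped. Without DOX it was 2.00-fold lower than in 2iL, a log2 difference of -1.003 ± 0.24 (adjusted p = 0.00429), with -0.85 in experiment 1, where it did not pass (adjusted p = 0.151), and -1.40 in experiment 2. The DOX mean of 303 ± 49.5 CPM was above the no DOX mean of 169 ± 47.3 CPM (SD, n = 3 each) by 0.84 ± 0.25 (95% interval 0.32 to 1.37), which did not pass (adjusted p = 0.0776). It passed without no DOX exp1_2 (1.08, adjusted p = 0.0350) and was 0.72 without DOX exp1_2 (adjusted p = 0.142). Between DOX and 2iL the difference was -0.16 ± 0.23, with an interval of -0.65 to 0.33 (adjusted p = 0.699), and -0.29 without DOX exp1_2 (adjusted p = 0.480).

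Sox1 (ENSMUSG00000096014; chromosome 8, 12395295 to 12400126, plus strand, 1 exon), the SoxB1 factor that marks the neural plate, was low throughout. It had 4.28, 8.10 and 7.99 CPM with DOX, 4.70, 6.69 and 5.58 CPM without DOX, and 2.33, 1.75, 1.54 and 1.85 CPM in 2iL. Both 96 h groups overlapped each other and lay above 2iL, where each library held 5 to 7 reads. With DOX it was 1.82 ± 0.61 log2 units above 2iL (adjusted p = 0.0453). For no DOX against 2iL it was 1.59 ± 0.60, which did not pass (adjusted p = 0.0689). Without DOX exp1_2, DOX against 2iL gave 1.69 (adjusted p = 0.120). The DOX call ended in 8 of 10 fits without 1 library, that is, without any 2iL library, DOX exp1_2, DOX exp2_1, no DOX exp1_1 or no DOX exp1_2 (adjusted p up to 0.129). For DOX against no DOX the difference was 0.24 ± 0.61, with an interval of -1.04 to 1.52 (adjusted p = 0.902), and 0.10 without DOX exp1_2 (adjusted p = 0.987).

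Set against each other, the SoxB1 genes exchanged shares. Libraries of 3′ ends count transcripts without regard to length, so shares are of reads. Sox3 made up 14.5%, 4.29% and 15.6% of SoxB1 reads with DOX (exact binomial 95% intervals 12.7 to 16.3, 2.71 to 6.42 and 13.4 to 17.98). Without DOX its share was 64.1%, 47.4% and 73.5% (61.6 to 66.5, 45.1 to 49.6 and 71.4 to 75.6), and in 2iL it was 2.38% to 5.56%. The DOX libraries exp1_1 and exp2_1 lay above 2iL and far below no DOX, and exp1_2 lay within the 2iL range. Intervals cover counting error only. Summed over the 3 genes, SoxB1 came to 349 ± 34.0 CPM with DOX, 462 ± 37.2 CPM without DOX and 355 ± 56.7 CPM in 2iL (SD, n = 3, 3 and 4), and the DOX libraries held 357, 378 (exp1_2) and 311 CPM. Over the 10 libraries, log2(CPM + 1) of Sox2 and Sox3 had a Pearson correlation of -0.92, a description across groups that share their treatments.

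**Figure D3:**
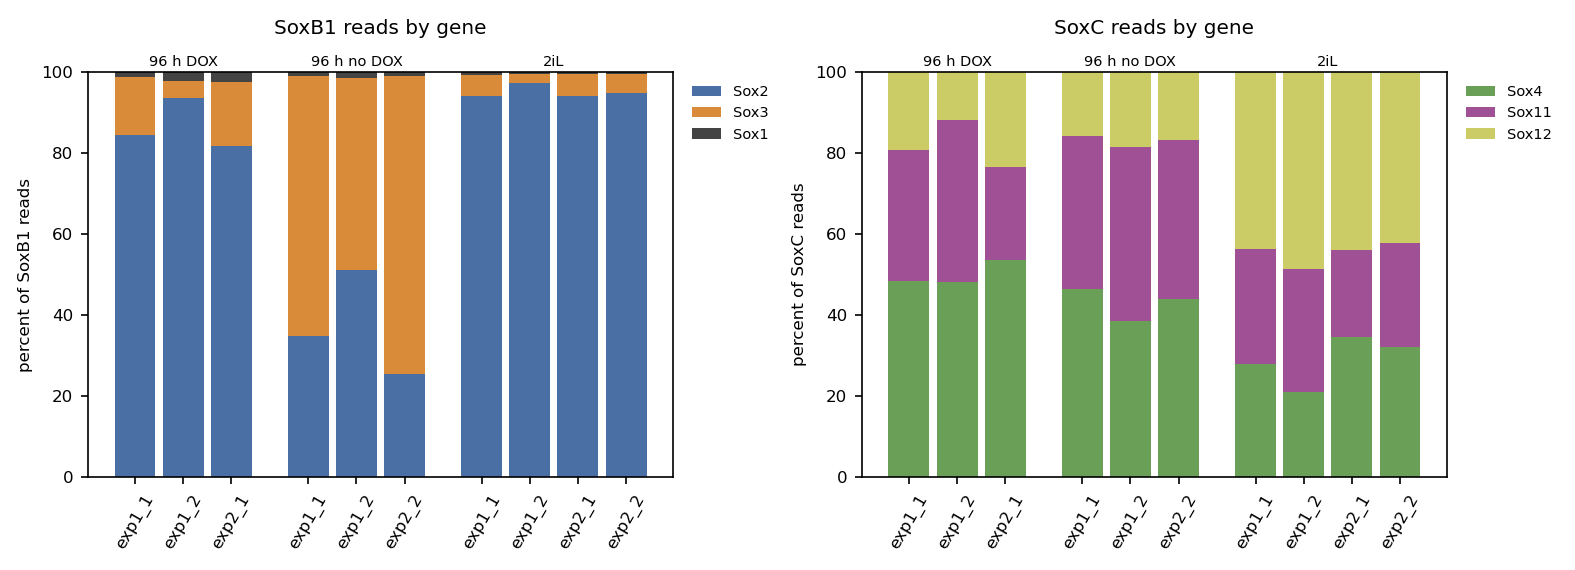
Share of each gene in the SoxB1 reads (left) and SoxC reads (right) of each library, in percent, as stacked bars from 0 to 100, with 96 h DOX, 96 h no DOX and 2iL libraries from left to right. Sox3 takes 47.4% to 73.5% of SoxB1 reads without DOX, and 4.29% to 15.6% with DOX.

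Of the SoxC genes, Sox4 (ENSMUSG00000076431; chromosome 13, 28948919 to 28953713, minus strand, 1 exon) stood at 273, 206 and 223 CPM with DOX. Without DOX it stood at 332, 303 and 284 CPM, and in 2iL at 21.0, 24.0, 45.1 and 42.1 CPM. All 96 h libraries were far above 2iL, and the DOX libraries were just below those without DOX. Over 2iL it was 7.09-fold higher with DOX (2.82 ± 0.26, adjusted p = 3.62e-07) and 9.27-fold higher without DOX (3.21 ± 0.26, adjusted p = 3.08e-08). Without DOX, the difference was 3.81 in experiment 1 and 2.70 in experiment 2. The experiments differed by -1.12 in this comparison, which did not pass (adjusted p = 0.601). The 2iL libraries of experiment 2 held 45.1 and 42.1 CPM, against 21.0 and 24.0 CPM in experiment 1. Between DOX and no DOX the difference was -0.39 ± 0.27, with an interval of -0.94 to 0.16 (adjusted p = 0.529). Without DOX exp1_2, DOX differed by -0.31 from no DOX (adjusted p = 0.729) and by 2.91 from 2iL (adjusted p = 5.30e-08). Of the gene's bases, 54.6% also lie in Gm26735 on the other strand, which had 0 to 5 reads a library.

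Sox11 (ENSMUSG00000063632; chromosome 12, 27334264 to 27342574, minus strand, 1 exon) stood at 182, 171 and 95.3 CPM with DOX. Without DOX it stood at 269.5, 339.9 and 251 CPM, and in 2iL at 21.3, 34.8, 27.9 and 34.0 CPM. No groups overlapped, with no DOX highest and 2iL lowest. Over 2iL it was 5.05-fold higher with DOX (2.34 ± 0.26, adjusted p = 2.31e-06) and 9.71-fold higher without DOX (3.28 ± 0.26, adjusted p = 2.14e-08). DOX lay below no DOX by -0.94 ± 0.26 (95% interval -1.50 to -0.39), just short of the threshold (adjusted p = 0.0573), with -0.76 and -1.40 within the experiments. It passed without DOX exp1_1 (-1.11, adjusted p = 0.0485) and without DOX exp1_2 (-1.05, adjusted p = 0.0409). Against 2iL the DOX difference without exp1_2 was 2.23 (adjusted p = 1.82e-06).

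Sox12 (ENSMUSG00000051817; chromosome 2, 152393611 to 152398063, minus strand, 1 to 2 exons) is the SoxC member with the mildest effect when lost in mice. It stood at 109, 50.8 and 97.1 CPM with DOX. Without DOX it stood at 113, 145 and 108 CPM, and in 2iL at 32.6, 55.9, 57.4 and 55.4 CPM. DOX exp1_2 lay within the 2iL range, and 2iL exp1_1 lay below its group. Without DOX it was 2.42-fold higher than in 2iL (1.28 ± 0.27, adjusted p = 0.00148), with 1.53 and 0.94 within the experiments. With DOX the difference from 2iL was 0.78 ± 0.27, with an interval of 0.22 to 1.35 (adjusted p = 0.0509), and it passed without DOX exp1_2 (1.03, adjusted p = 0.00504). Between DOX and no DOX it was -0.49 ± 0.29, with an interval of -1.09 to 0.10 (adjusted p = 0.438), and -0.25 without DOX exp1_2 (adjusted p = 0.793).

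Summed, the SoxC genes came to 469 ± 83.0 CPM with DOX, 715 ± 72.5 CPM without DOX and 113 ± 26.5 CPM in 2iL (SD, n = 3, 3 and 4), and the DOX libraries held 565, 427 (exp1_2) and 415 CPM. Sox12 made up 11.9% to 23.4% of SoxC reads with DOX and 15.8% to 18.4% without DOX, against 42.1% to 48.7% in 2iL. Its share was therefore lower in every 96 h library than in any 2iL library, while its own level was higher in all but DOX exp1_2. Sox4 held 48.1% to 53.7% with DOX, 38.5% to 46.5% without DOX and 20.9% to 34.6% in 2iL. Sox11 held 22.9% to 40.0% with DOX, 37.7% to 43.1% without DOX and 21.4% to 30.4% in 2iL. Sox4 and Sox11 followed each other across the 10 libraries (Pearson correlation of log2(CPM + 1) 0.96), which is a description across groups that share their treatments.

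Sox13 (ENSMUSG00000070643; chromosome 1, 133382303 to 133424377, minus strand, 2 to 14 exons), the TCF-binding SoxD factor, had 5.94, 8.10 and 9.83 CPM with DOX, 6.46, 7.12 and 4.11 CPM without DOX, and 8.66, 9.65, 11.1 and 9.61 CPM in 2iL. The no DOX libraries were below 2iL and the DOX libraries overlapped both. Each library held 11 to 36 reads of it. No comparison passed: DOX against no DOX gave 0.42 ± 0.48 (95% interval -0.58 to 1.41), no DOX against 2iL -0.72 ± 0.44 (-1.64 to 0.21) and DOX against 2iL -0.30 ± 0.44 (-1.22 to 0.63), with adjusted p of 0.738, 0.301 and 0.706. Without DOX exp1_2, DOX gave 0.40 against no DOX (adjusted p = 0.853) and -0.32 against 2iL (adjusted p = 0.768).

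Sox15 (ENSMUSG00000041287; chromosome 11, 69655314 to 69656727, plus strand, 2 exons), the SoxG factor, had 0.238, 2.95 and 1.23 CPM with DOX, 2.06, 1.29 and 0.294 CPM without DOX, and 4.995, 4.97, 8.29 and 6.65 CPM in 2iL. All 2iL libraries lay above all 96 h libraries. The 96 h groups held 9 and 14 reads in all with and without DOX, against 77 in 2iL. Its difference from 2iL was -2.31 ± 0.88 with DOX (adjusted p = 0.0801) and -2.32 ± 0.83 without DOX (adjusted p = 0.0541), both short of the threshold. Without DOX exp1_1 or without DOX exp1_2 the no DOX difference passed (adjusted p = 0.0480 and 0.0470). A difference between DOX and no DOX was not detectable at this depth (0.01 ± 1.56, interval -3.23 to 3.25, adjusted p = 0.998). Without DOX exp1_2, DOX gave -0.77 against no DOX (adjusted p = 0.870) and -3.09 against 2iL (adjusted p = 0.0559). Its exons share 31 of 861 bases with Mpdu1 on the other strand, which had 334 to 2261 reads a library and was not called in any of the 3 comparisons; whether counting used the strand is not stated.

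**Figure D4:**
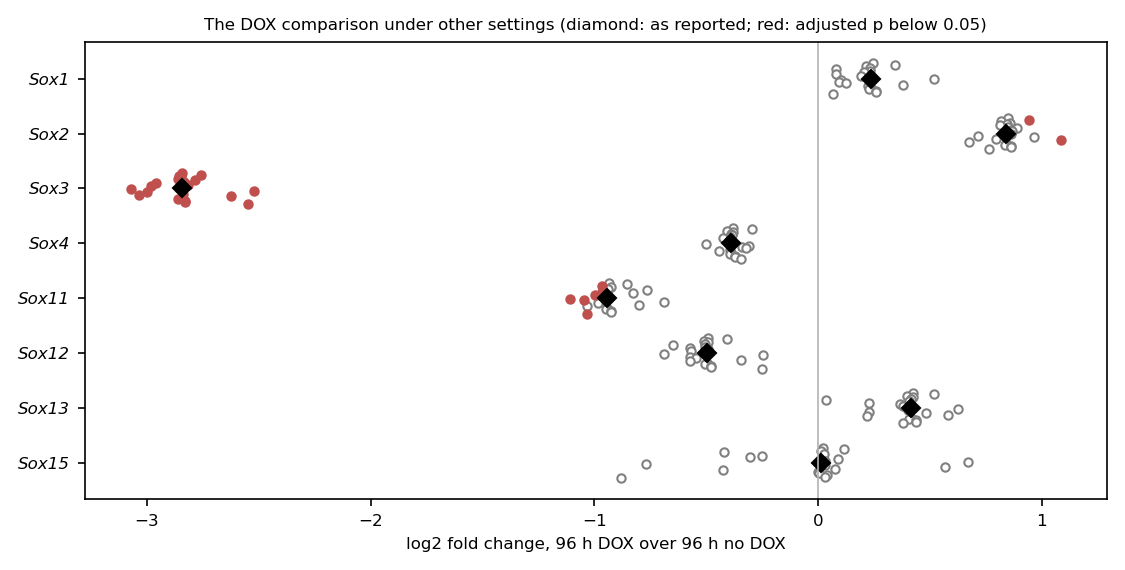
Log2 fold change of each Sox gene, 96 h DOX over 96 h no DOX, as reported (diamond) and under the other settings of filter, scaling, tool, samples and covariates (circles; red where the adjusted p is under 0.05). Sox3 stays between -3.07 and -2.52 and past the threshold in all 22 settings.

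Other genes of the Sox family were mostly too low to test: 3 of 12 passed the filter (Sox9, Sox17 and Sox21). Sox17, the endoderm factor of the SoxF subfamily, had 7.60, 7.37 and 8.30 CPM with DOX, against 0.294, 0.863 and 0 CPM without DOX. It was called higher with DOX than without (4.10 ± 1.10, adjusted p = 0.0463) and than in 2iL (3.34 ± 0.96, adjusted p = 0.0193). The groups did not overlap at 96 h, as was so for 18.7% of all genes. Only DOX libraries reached the level of the filter on low counts, so Sox17 passed it through the group where it is high. Its separation thus depends in part on that filter. Leaving out 1 library ended the first call in 8 of 10 fits (adjusted p up to 0.184). It held without 2iL exp1_1 and without 2iL exp2_2. The call against 2iL was lost without DOX exp1_1, DOX exp2_1, 2iL exp1_2 or 2iL exp2_1 (adjusted p up to 0.0596). Endoderm markers summed to 283 to 528 CPM with DOX, against 21.5 to 31.5 CPM without DOX and 17.0 to 27.4 CPM in 2iL. Of these 7 markers, 7 had reads in every DOX library and 4 to 7 in the other libraries. Col4a1 alone gave 158 (exp1_1), 239 (exp1_2) and 195 CPM (exp2_1) of the DOX sums. Lama1 in DOX exp1_1 and exp2_1 (23.1 and 21.6 CPM) lay near or within the 2iL range, which reached 22.4 CPM. The part of these markers in the Sox differences was not tested. Sox9, known from neural crest and chondrocytes, had 42.0 CPM in DOX exp1_2, the library with the high fibroblast marker sum, against 2.38 and 0.307 CPM in the other DOX libraries.

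The lists below stand beside the share of all genes called by edgeR. It was 3.10% with DOX against no DOX, 20.4% for no DOX against 2iL and 16.7% with DOX against 2iL. Counts at an unadjusted p have no such share here. The POU partners of Sox factors were counted as a list of 9, of which 5 were tested. For DOX against no DOX edgeR called 0, DESeq2 0 and an unadjusted p under 0.05 also 0 (median -0.63, beside -0.02 over all genes). Between no DOX and 2iL, 2 were called, both higher (median 0.36): Pou3f1, the epiblast and neural partner also known as Oct6, at 250 ± 85.2 and 8.06 ± 2.09 CPM (4.95 ± 0.36, adjusted p = 7.05e-09), and Pou2f2 (4.07 ± 0.64, adjusted p = 8.19e-05). With DOX the same pair were called higher than in 2iL. Pou2f2 averaged 1.02 CPM in 2iL, below the level of the filter on low counts, and passed it through groups where it is high. Pou5f1, which encodes Oct4, had 36.5 ± 20.05 CPM with DOX, 46.1 ± 10.6 CPM without DOX and 42.6 ± 13.3 CPM in 2iL (SD, n = 3, 3 and 4), and passed in no comparison.

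Genes with a classic Oct4-Sox2 element numbered 7, all tested. With DOX against no DOX, 1 was called, and it was higher (median 0.57): Zfp42, at 81.9 ± 27.7 and 18.9 ± 3.70 CPM (2.10 ± 0.29, adjusted p = 1.56e-04). At an unadjusted p under 0.05, 5 of the 7 were higher and 0 lower, and DESeq2 called 1 higher and 0 lower. Without a share of all genes at that unadjusted p, the 5 are not read as a result about the list. Between no DOX and 2iL, 5 were called lower and 1 higher (median -1.97). Nanog had 18.4 ± 4.17 CPM without DOX and 220 ± 24.3 CPM in 2iL (-3.59 ± 0.31, adjusted p = 7.47e-08), and Zfp42 differed by -3.30 ± 0.29 (adjusted p = 6.94e-08). Utf1, a chromatin factor of pluripotent cells, went the other way, with 404 ± 76.2 CPM without DOX and 123 ± 24.5 CPM in 2iL (1.71 ± 0.22, adjusted p = 9.37e-06). With DOX against 2iL, 4 were called lower and 1 higher (median -1.20). The calls named for Zfp42, Nanog and Utf1 held in all 10 fits that left out 1 library.

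Of 22 neural progenitor genes, 11 were tested. With DOX against no DOX, 1 was called lower (median over the list -0.71). Nes, the intermediate filament nestin, had 17.5 ± 1.16 CPM with DOX and 53.5 ± 3.65 CPM without DOX (-1.60 ± 0.33, adjusted p = 0.00840), and this call held in all 10 fits that left out 1 library. At an unadjusted p under 0.05, 4 were lower, and DESeq2 called 2 lower. Between no DOX and 2iL, 5 were called, all of them higher (median 1.54), led by Nnat (3.83 ± 0.33, adjusted p = 5.34e-08) and Otx2, an anterior epiblast factor (3.12 ± 0.32, adjusted p = 5.14e-07). With DOX against 2iL, 3 were called, all of them higher (median 0.83). The 5 neural markers fixed for the label check summed to 25.5 to 46.5 CPM with DOX, 59.1 to 84.8 CPM without DOX and 16.9 to 32.7 CPM in 2iL, and 3 to 5 of them had reads in a DOX library. Nes, already named, gave 17.5 to 19.6 CPM of these sums with DOX and 48.2 to 55.9 CPM without DOX. Pax6, Hes5 and Zic1 overlapped between DOX and no DOX, with Pax6 highest in DOX exp2_1 (16.6 CPM). Fabp7, at 4.24 CPM or less, was lower in every DOX library than without DOX. The 4 epiblast markers had reads in every library. They summed to 1094 to 1717 CPM with DOX, 2207 to 2494 CPM without DOX and 184 to 226 CPM in 2iL. Dnmt3b alone gave 726 to 1108 CPM of these sums with DOX and 1571 to 1952 CPM without DOX. Fgf5 was also lower in every DOX library than without DOX, while Otx2 and Pou3f1 overlapped between DOX and no DOX. The part of the neural and epiblast markers in the Sox3, Sox4 and Sox11 differences was not tested.

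Of 14 neuronal genes, several of them known SoxC targets, 13 were tested. With DOX against no DOX, 1 was lower and 1 higher (median -0.49); at an unadjusted p under 0.05, 4 were lower and 3 higher, and DESeq2 called 2 lower and 1 higher. Tead2, a SoxC target in mouse, had 99.9 ± 28.1 CPM with DOX and 225 ± 52.3 CPM without DOX (-1.16 ± 0.27, adjusted p = 0.0182), and the call was lost without DOX exp2_1, no DOX exp1_2 or no DOX exp2_2 (adjusted p up to 0.0851). Nefl, a neurofilament gene, had 72.7 ± 5.78 and 26.0 ± 8.23 CPM (1.48 ± 0.30, adjusted p = 0.00643). Between no DOX and 2iL, 7 were higher and 4 lower (median 1.44). The RNA-binding protein genes Elavl3 (4.53 ± 0.40, adjusted p = 9.81e-08) and Rbfox3 (4.07 ± 0.79, adjusted p = 7.00e-04) were highest by fold, and Mapt (-2.79 ± 0.51, adjusted p = 4.24e-04) and Nefm (-1.67 ± 0.34, adjusted p = 0.00118) were lowest. Elavl3 and Rbfox3 averaged 2.30 and 0.501 CPM in 2iL, and Mapt 2.64 CPM without DOX, below the filter's level of 3.00 CPM. These genes thus passed the filter through groups where they are high. With DOX against 2iL, 5 of the 13 were higher and 2 lower (median 0.90). The 5 neuron markers fixed for the label check overlapped across groups, at 465 to 927 CPM with DOX, 845 to 1407 CPM without DOX and 454 to 1030 CPM in 2iL.

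The 4 TCF factors, partners of Sox13, were all tested. With DOX against no DOX edgeR called 0, as did DESeq2 and an unadjusted p under 0.05 (median 0.19). Lef1 was called higher than in 2iL both with DOX (2.42 ± 0.54, adjusted p = 0.00391) and without DOX (2.24 ± 0.53, adjusted p = 0.00476), with medians over the list of -0.01 and -0.12. Over all these lists, 25 calls were made in the comparisons with DOX, and 24 of them held without DOX exp1_2; the exception was Sox17 with DOX against no DOX (adjusted p = 0.0952).

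By the likeness of their pattern over the 10 libraries (Pearson correlation of log2(CPM + 1), among genes averaging at least 10 CPM), the nearest gene to Sox3 was Irx3, a homeodomain factor (0.981), followed by Rab15 (0.972) and Phf21b (0.970). Irx3 was lower with DOX than without by -2.49 ± 0.43 (adjusted p = 0.00194), and by -2.18 without DOX exp1_2 (adjusted p = 0.00425). Nearest to Sox2 were Nefl (0.963), Plin2 (0.960) and Sept1 (0.959). The SoxC genes had Epcam (0.997), Ctdspl (0.995) and Elavl3 (0.994) nearest to Sox4, Syt11 (0.988), Lin28a (0.986) and Dbn1 (0.979) nearest to Sox11, and Pex6 (0.959) nearest to Sox12. Sox1 was nearest to Obsl1 (0.960), Sox13 to Gabpa (0.943) and Sox15 to Apod (0.968). With 10 libraries in 3 groups and 7882 or 7883 genes compared, these are descriptions without a test.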

How the data were processed

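The authors deposited read counts per gene for 10 libraries of 3′ digital mRNA-seq (polyA RNA). The submitters' processing notes name bcl2fastq, STAR 2.6.0a, HTSeq and the mm10 build; per the labels, no annotation release or strand setting is stated. The deposited CPM table was not used. The 5 HTSeq summary lines (62.7% to 68.4% of entries counted, mostly reads with several alignments) were taken off. Ensembl IDs gave the symbols (30934 of 31053 matched), and GENCODE vM21 gave mm10 positions.

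filterByExpr (minimum count 10) kept 11215 genes. edgeR 4.0.16 (R 4.3.3) fitted a robust quasi-likelihood model of the 3 groups to all 10 libraries with TMM scaling (factors 0.911 to 1.09), adjusted by Benjamini-Hochberg over all genes and called under 0.05. The SE is the fold change over the square root of the F statistic. Member levels are TMM-scaled CPM, and marker sums and Esrrb are CPM without TMM. The fit was tested on simulated data. Alternatives used limma 3.58.1, DESeq2 1.42.0, other filters, scalings, samples and covariates. Shares have exact binomial 95% intervals.

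All 8 Sox genes are named throughout. From each list at most 2 called genes per direction are named by size of change (3 for other Sox genes), and the 3 most alike genes per Sox gene. Pou5f1, Sox9 and Sox21, which were not called, were named after their values were seen. Among the neural progenitor genes, 1 result is not reported here. The Sox genes, the lists and the tests were chosen with earlier results of these data known. Promoter windows are RefSeq (GRCm38.p6) and coding stretches GENCODE vM21.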

Additional observations from a re-analysis of the deposited data

Results flagged for a closer look

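Sox12 in the 2iL libraries was 32.6 CPM in exp1_1, apart from 55.4 to 57.4 CPM in the other 3 libraries, a gap large for the range of 4 values by Dixon's criterion; chance gives such a gap in about 1 of 20 groups. Without that library, Sox12 was 1.12 log2 units higher without DOX than in 2iL (adjusted p = 0.00738) and 0.62 higher with DOX than in 2iL (adjusted p = 0.152).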

How the results depend on the processing

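Sox3 kept its direction and its side of the threshold with DOX against no DOX, and Sox3, Sox4, Sox11 and Sox12 with no DOX against 2iL, in all 22 other settings. Of the 8 Sox genes with DOX against no DOX, 1 was called higher with library totals or DESeq2 (Sox2), and 2 lower with no filter, limma-voom, DESeq2 or the experiment as a replicate block (Sox3 and Sox11). Without DOX exp1_2 and with that block together, a setting chosen after seeing the data, it was also 2. Over fits leaving out 1 library, 0 to 1 were higher and 1 to 2 lower.

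Between no DOX and 2iL, 0 were called lower in experiment 1 alone, and 2 with only the 2 groups compared, limma-voom, limma on log2(CPM + 1) or DESeq2 (Sox2 and Sox15); leaving out 1 library gave 1 to 2. With DOX against 2iL, 2 were called higher in experiment 1 alone, and 1 lower with limma-voom, limma on log2(CPM + 1) or DESeq2. Sox1 with DOX against 2iL lost its call in 15 of 21 settings, and Sox12 passed in 8 of 22 (with the experiment as a replicate block, adjusted p = 0.04999).

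Genes called with DOX against no DOX, 348 as reported, numbered 564 with no filter, 563 with DESeq2, 212 with only the 2 groups, 108 in experiment 1 alone and 159 with a replicate block by experiment and number. Leaving out 1 library gave 161 (without no DOX exp1_1) to 358. Experiment 1 alone gave 1226 genes for no DOX against 2iL and 926 for DOX against 2iL. Fewer libraries enter the fits with only the 2 groups, in experiment 1 alone or without 1 library. The fits with no filter and with that replicate block use all libraries. Otherwise the cause of these differences was not tested. Sox15 with DOX against no DOX changed sign in experiment 1 alone (-0.42), with that block (-0.25), with limma-voom (-0.30) and without DOX exp1_2 with the experiment as a block (-0.88), and ran between -0.77 and 0.67 when 1 library was left out.

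Titles name experiments without saying what they share. Deviations from group means correlated at -0.169 to 0.227 within an experiment (17 pairs) and -0.194 to 0.148 between experiments (16 pairs). Libraries were therefore not treated as paired in the main fit. Such correlations cannot show that the experiment had no effect on single genes. Sox4 in 2iL held 21.0 and 24.0 CPM in experiment 1 and 45.1 and 42.1 CPM in experiment 2. Depth limits Sox1, Sox13 and Sox15, with 1 to 36 reads a library. The filter at a minimum count of 30 removed Sox1 and Sox15, which then have no value.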
